A study of Mus musculus with 10 samples.

Results

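The genes described here are 9 genes that place, bind or remove methyl groups on cytosine in DNA, measured as mRNA in the brain of newborn mice. They were chosen by their role in DNA methylation, and the choice used no threshold on a measured value: the maintenance methyltransferase Dnmt1, the de novo methyltransferases Dnmt3a and Dnmt3b, the Dnmt1 partner Uhrf1, the dioxygenases Tet1, Tet2 and Tet3, and the methyl-CpG binding proteins Mbd1 and Mbd2. All 9 were found by Ensembl gene identifier among the 18444 genes of the deposited table, and all 9 were among the 17020 genes with a mean of at least 10 normalised read counts that were tested.

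In mammals most DNA methylation sits on cytosines followed by guanine (CpG), where Dnmt3a and Dnmt3b set it and Dnmt1, guided by Uhrf1 to newly copied DNA, keeps it through cell division. TET enzymes oxidise methylcytosine to hydroxymethylcytosine and beyond, which opens the way to its removal, and methyl-CpG binding proteins bring repressive complexes to methylated DNA. Neurons are known for unusually high hydroxymethylcytosine and for a wave of Dnmt3a-dependent methylation at sites outside CpG after birth.

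Whole brains were taken from male C57BL/6N mice at postnatal day 3, 5 heterozygous for Arid1b (HT) and 5 wild type (WT), with 1 library per replicate in the labels. Per the study's methods, HT mice carried 1 copy of a protein-truncating allele (C57BL/6N-Arid1b em1Tcp) made by CRISPR/Cas9 nickase targeting of exon 5, a germline allele kept as a single line. No treatment was named for either group, and the labels did not give the litter of a pup, and the part of litter in the values was not tested. The comparison of HT with WT asks what the loss of 1 copy of Arid1b, a subunit of the BAF chromatin remodelling complex, goes with in the early postnatal brain.

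The deposited values summed to 27243506 to 29032442 normalised counts per library. Arid1b itself was at 2101 ± 343 in the HT and 3335 ± 203 in the WT libraries (SD), a log2 fold change of -0.68 without overlap between the groups (exact permutation p = 0.00794; limma, unadjusted p = 2.29e-05, adjusted p = 0.390, and 0.000252 without HT 4). Markers of neurons, astrocytes, oligodendrocyte lineage, microglia and vessel cells were all detected in the whole-brain libraries. One library, HT 4, stood apart from the other 9. Its score on the first principal component, which held 22.5% of the variance, was 53.9 against -23.4 to 9.81 in the others. Across genes its deviation fell with transcript length (Spearman's rho = -0.50, with genes not being independent replicates). In the other 9 libraries this rho ran from -0.18 in WT 5 to 0.34 in HT 1. The fold changes below are therefore given with and without HT 4, and no gene among the 17020 had an adjusted p under 0.05 in limma with all 10 libraries (0%).

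For 7 of the 9 genes RefSeq promoter entries were at hand, 12 windows in all, each from 250 bases before to 50 bases after a transcription start in GRCm38.p6. Across all 32851 windows the median was 7 CpG. The window of Tet2 held 57 CpG, more than 99.8% of all windows, followed by 46 and 47 at the first pair of Dnmt3a starts, and those of Dnmt3b, Tet3 and Tet1 held 30, 22 and 17. Dnmt1 ranged from 2 to 33 CpG over its 3 starts, and Uhrf1 held 12 at the first and 33 at the second. The 250 bases before the start are shown for the genes on which the expression results below turn: Dnmt3b, the gene with the lowest unadjusted p, Uhrf1, whose level went with that of proliferation genes (second start), and Tet2, which was lowest in HT 4 relative to the other HT libraries. They are written 5′ to 3′ on the strand of the gene, in lower case, with capitals marking each CpG.
Dnmt3b (chr2:153649199-153649448, forward strand): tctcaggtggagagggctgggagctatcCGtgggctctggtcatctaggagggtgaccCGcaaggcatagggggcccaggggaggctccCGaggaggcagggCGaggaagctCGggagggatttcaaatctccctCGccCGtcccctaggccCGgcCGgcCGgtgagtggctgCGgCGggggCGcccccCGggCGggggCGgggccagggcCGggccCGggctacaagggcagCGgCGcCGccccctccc
Uhrf1 (chr17:56304063-56304312, forward strand): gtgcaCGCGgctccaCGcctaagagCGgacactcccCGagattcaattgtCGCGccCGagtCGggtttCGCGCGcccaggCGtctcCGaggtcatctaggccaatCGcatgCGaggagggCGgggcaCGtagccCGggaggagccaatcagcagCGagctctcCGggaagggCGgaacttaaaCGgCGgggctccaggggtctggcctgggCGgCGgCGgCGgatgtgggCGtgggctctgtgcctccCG
Tet2 (chr3:133544391-133544640, reverse strand): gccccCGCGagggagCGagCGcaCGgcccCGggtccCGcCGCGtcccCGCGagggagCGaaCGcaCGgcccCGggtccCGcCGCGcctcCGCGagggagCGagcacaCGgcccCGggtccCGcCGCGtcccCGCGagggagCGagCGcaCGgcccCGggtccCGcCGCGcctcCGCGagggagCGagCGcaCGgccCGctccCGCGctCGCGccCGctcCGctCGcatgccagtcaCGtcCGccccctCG
These stretches held 21, 30 and 51 CpG. The E2F-type words TTTCCCGC, TTTCGCGC, TTTGCCGC and TTTGGCGC were searched on both strands because E2F factors drive genes of the S phase. They occurred in 2 of the 12 windows, the second start of Uhrf1 and the third of Dnmt1, against 2.26% of all windows. Each word holds a CpG and both windows held 33 CpG, while the 2.26% was not matched for CpG. Whether E2F factors act on these genes was not tested. In Uhrf1 the word was TTTCGCGC and began 185 bases before the start, where it reads tttCGCGC in the sequence above.

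Compared per length of the longest annotated coding transcript, the WT libraries gave the order Dnmt3a, Dnmt1, Tet3, Mbd1, Mbd2, Tet2, Uhrf1, Tet1 and Dnmt3b. Dnmt3a had the highest level, at 861 ± 36.8 normalised counts per kb (SD, n = 5 WT), and Dnmt1 followed at 673 ± 20.0. Their ranges over libraries did not overlap. Tet3, at 390 ± 21.6 counts per kb, and Mbd1, at 357 ± 17.97, overlapped in range, and both were above Mbd2 at 285 ± 18.5. The levels of Tet2, Uhrf1 and Tet1, at 159 ± 17.0, 150 ± 13.6 and 134 ± 19.0 counts per kb, followed each other with overlapping ranges. Dnmt3b was lowest, at 19.9 ± 1.85 counts per kb, in the range of no other of the 9 genes. By mean level per kb, Dnmt3a stood at the 86.7th percentile of the genes tested and Dnmt3b at the 17.6th.

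The order of the means was the same in the HT libraries for 9 of 9 genes. Without HT 4, Tet1 at 142 ± 6.11 counts per kb and Uhrf1 at 131 ± 25.5 exchanged places, with overlapping ranges. The order depends on the transcript used, because Dnmt3a and Tet1 have many short annotated coding transcripts: with the median coding transcript, of 814 bp for Dnmt3a and 567 bp for Tet1, Tet1 moved to the second place and only 2 of 9 genes kept theirs.

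**Figure D1:**
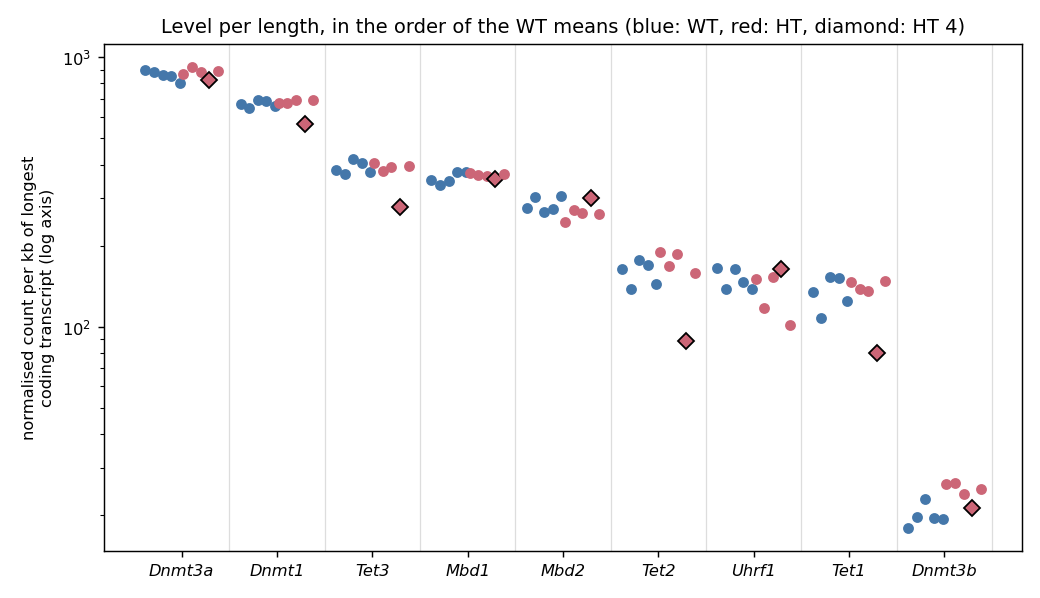
Level of each gene in every library, in normalised counts per kb of the longest coding transcript (log axis), with WT in blue, HT in red and HT 4 as a diamond. Dnmt3a and Dnmt1 lie highest, and Dnmt3b lies lowest by a wide gap, at 19.9 counts per kb in WT.

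With all 10 libraries, limma gave an adjusted p of 1.00 for each of the 9 genes and an unadjusted p under 0.05 for 1 of 9, Dnmt3b, where 3.41% of all genes tested had one (1.47% higher in HT). The log2 fold change was above 0 for 3 genes and below 0 for 6, with a median of -0.05 against -0.01 over all genes tested. No gene separated the HT from the WT libraries without overlap, where 0.629% of all genes did (0.282% with HT higher). Without HT 4, 7 of the 9 were above 0 and 2 below, the median was 0.04 against -0.0008 over all genes, and 4 genes turned direction. In that fit Dnmt3b alone had an unadjusted p under 0.05 (8.4% of all genes did, 4.69% higher in HT) and Dnmt3b alone had groups that did not overlap (2.96% of all genes, 1.75% with HT higher), while the lowest adjusted p was 0.478 (0.0118% of all genes had one under 0.05). With a trend on transcript length and GC content also removed, Dnmt3a, Tet1 and Tet3 were below 0.

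Dnmt3b, on the forward strand of chr2:153649450-153687730 (GRCm38), is a de novo methyltransferase best known from the early embryo. Its normalised count was 112, 114, 103, 92.1 and 108 in HT 1 to HT 5 and 77.4, 85.1, 99.1, 84.4 and 83.3 in WT 1 to WT 5. In 4 of the 5 HT libraries it was above every WT library, and HT 4 was below WT 3 but above the other 4 WT libraries. The mean was 106 ± 8.70 in HT against 85.9 ± 7.996 in WT (SD, 5 libraries a group), or 123% of WT. The log2 fold change was 0.30 ± 0.11 (SE; 95% interval 0.05 to 0.55), with an unadjusted limma p of 0.0218, an adjusted p of 1.00 and a two-sided exact permutation p of 0.0159. Without HT 4 the difference was 0.35 (95% interval 0.09 to 0.61), with an unadjusted limma p of 0.0126, an adjusted p of 0.478 and an exact p of 0.0159.

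The difference in Dnmt3b thus did not pass the test over all genes in either fit. Its unadjusted p was under 0.05 in 19 of the 21 settings that gave a value, and was 0.0512 without HT 2 and 0.0531 without WT 1. The gene shares 13.5% of its transcript words of 31 bases with Dnmt3c, a neighbouring copy active in male germ cells and not a row of the table, so reads of these stretches could have been credited to either. As part of the summed per-kb level of the 3 methyltransferases, Dnmt3b made up 1.57% ± 0.0709 in HT against 1.28% ± 0.116 in WT (SD, 5 libraries a group). The HT libraries ran from 1.49% to 1.66% and the WT libraries from 1.13% to 1.45%, without overlap (two-sided exact permutation p = 0.00794, the smallest this design allows; adjusted over 6 shares, 0.0476). The share was a measure chosen after the values were seen, and the adjusted p was 0.0952 when any 1 HT library was left out, with the groups still apart.

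Dnmt3a, on the forward strand of chr12:3806007-3914443, is the main de novo methyltransferase of postnatal neurons. Its normalised count was 8397, 8918, 8573, 7959.8 and 8598 in HT 1 to HT 5 and 8724, 8583, 8343, 8240.2 and 7800.4 in WT 1 to WT 5. The groups overlapped, with HT 2 above every WT library and WT 5 the lowest of the 10. HT minus WT was 0.03 ± 0.05 on the log2 scale (SE; 95% interval -0.08 to 0.13; limma, unadjusted p = 0.589), and 0.05 without HT 4 (unadjusted p = 0.211). The share of Dnmt3a in the methyltransferase sum was 56.1% ± 1.35 in HT against 55.4% ± 1.37 in WT (SD, 5 libraries a group; exact permutation p = 0.429, and 0.810 without HT 4).

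Dnmt1, on the reverse strand of chr9:20907209-20959888, copies methylation onto new strands and is also kept in neurons that no longer divide. Its normalised count was 3975, 3976, 4074, 3332 and 4077 in HT 1 to HT 5 and 3936, 3797, 4081, 4054 and 3889 in WT 1 to WT 5. HT 4 was the lowest of the 10 libraries, and the other 4 HT libraries lay within the WT range. The difference of HT minus WT was -0.03 ± 0.06 on the log2 scale (SE; limma, unadjusted p = 0.652; exact permutation p = 0.873). Without HT 4 it turned to 0.03 (95% interval -0.05 to 0.10; unadjusted p = 0.455). The spread between the remaining HT libraries was small, with a coefficient of variation of 1.43% against 2.97% in WT.

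Uhrf1, on the forward strand of chr17:56303321-56323486, binds hemimethylated CpG at the replication fork and brings in Dnmt1. It lies on the same chromosome as Arid1b. Its normalised count was 540.2, 420, 550, 588 and 364 in HT 1 to HT 5 and 594, 495, 588, 526 and 494 in WT 1 to WT 5. HT 5 and HT 2 were below every WT library and the other 3 HT libraries lay within the WT range. The mean was 492 ± 95.6 in HT against 539 ± 48.7 in WT (SD, 5 libraries a group), a log2 fold change of -0.15 ± 0.12 (SE; 95% interval -0.42 to 0.12; limma, unadjusted p = 0.251; exact permutation p = 0.381). Without HT 4 the fold change was -0.22 (95% interval -0.47 to 0.03; unadjusted p = 0.0821), and without HT 5 it was -0.05. The gene shares 24.2% of its 31-base transcript words with other genes, 21.9% with the processed pseudogene Gm5648 on chromosome X, which is not a row of the table.

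The 3 TET genes shared a feature, a low value in HT 4. Tet1, on the reverse strand of chr10:62804570-62908996, had normalised counts of 2111, 1990.1, 1942, 1150.0 and 2117 in HT 1 to HT 5 and 1938, 1550.0, 2191, 2187 and 1786 in WT 1 to WT 5. HT 4 was the lowest of all, followed by WT 2, and the remaining HT libraries lay inside the WT range. The log2 fold change was -0.07 ± 0.16 (SE; limma, unadjusted p = 0.653) and 0.09 without HT 4 (95% interval -0.11 to 0.29; unadjusted p = 0.334).

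Tet2, on the reverse strand of chr3:133463679-133545139, lacks the CXXC DNA-binding domain that the longer forms of Tet1 and Tet3 carry. Its normalised count was 1734, 1539, 1712, 812 and 1454 in HT 1 to HT 5 and 1500.4, 1262, 1627, 1561 and 1324 in WT 1 to WT 5. HT 1 and HT 3 were above every WT library, while HT 4 was far below all others, at 50.4% of the mean of the other HT libraries. The group means of 1450.3 ± 376 in HT against 1455 ± 156 in WT (SD, 5 libraries a group) were close (log2 fold change -0.05 ± 0.18, SE; limma, unadjusted p = 0.795). Without HT 4 the HT mean was 1609.9 ± 135, or 111% of WT, and the log2 fold change turned to 0.15 (95% interval -0.02 to 0.32; unadjusted p = 0.0815).

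Tet3, on the reverse strand of chr6:83362373-83459084, is the TET gene with the highest level here, at 57.2% ± 1.90 of the summed per-kb level of the 3 genes in WT (SD, n = 5). Its normalised count was 4414, 4119, 4254, 3032 and 4299.8 in HT 1 to HT 5 and 4150.0, 4027, 4581, 4423 and 4098 in WT 1 to WT 5. Again HT 4 was lowest and the other HT libraries lay within the WT range. The HT minus WT difference in log2 values was -0.09 ± 0.09 (SE; limma, unadjusted p = 0.333) and 0.01 without HT 4 (95% interval -0.09 to 0.10; unadjusted p = 0.880). The shares of Tet1, Tet2 and Tet3 in the TET sum did not pass the test between HT and WT (exact permutation p = 0.976, 0.659 and 0.722), nor without HT 4 (0.619, 0.0873 and 0.0873).

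The readers lie on chromosome 18. Mbd1, which binds methylated CpG and works with the histone methyltransferase Setdb1, had normalised counts of 1459, 1433, 1426, 1380.3 and 1449 in HT 1 to HT 5 and 1373, 1321, 1358, 1471 and 1477 in WT 1 to WT 5. All HT libraries lay within the WT range, and HT 4 was at 95.7% of the mean of the other HT libraries. Its log2 fold change was 0.03 ± 0.05 (SE; 95% interval -0.08 to 0.14; limma, unadjusted p = 0.539), and 0.04 without HT 4 (95% interval -0.06 to 0.15; unadjusted p = 0.376).

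Mbd2, which recruits the NuRD deacetylase and remodelling complex to methylated DNA, had normalised counts of 479, 530.2, 516, 585 and 514 in HT 1 to HT 5 and 537, 593, 522, 535 and 599 in WT 1 to WT 5. HT 1, HT 3 and HT 5 were below every WT library, and HT 4 was the highest HT library. The mean was 525 ± 38.6 in HT against 557 ± 36.1 in WT (SD, 5 libraries a group), a log2 fold change of -0.09 ± 0.07 (SE; 95% interval -0.24 to 0.07; limma, unadjusted p = 0.237; exact permutation p = 0.151). Without HT 4 the fold change was -0.13 (95% interval -0.27 to 0.02; limma, unadjusted p = 0.0763, adjusted p = 0.634), and the exact permutation p was 0.0397.

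**Figure D2:**
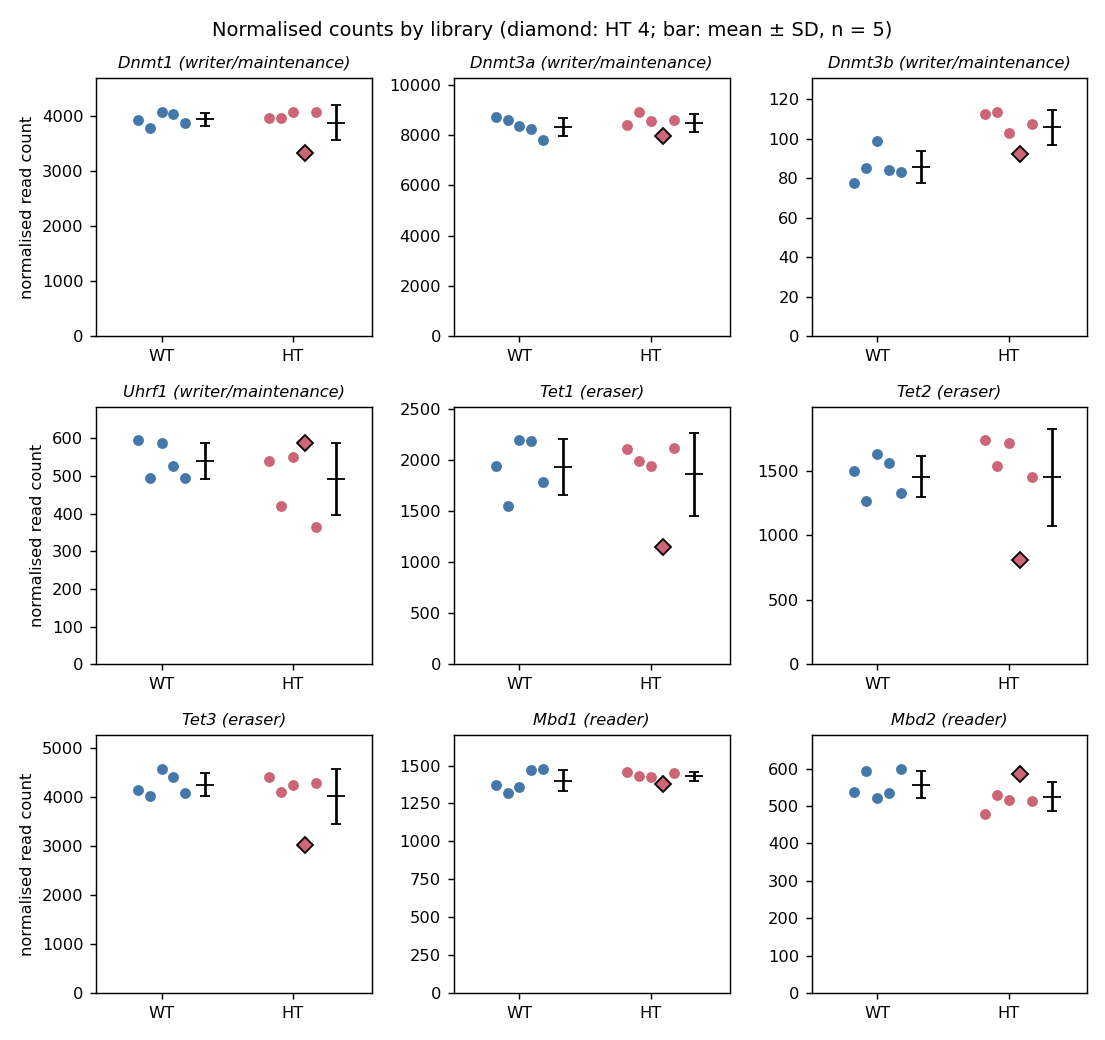
Normalised read count of each of the 9 genes in every library (1 panel per gene, linear axis from 0), with WT in blue, HT in red, HT 4 as a diamond and the group mean ± SD as a bar (n = 5). Dnmt3b is the gene with 4 of 5 HT libraries above all WT libraries, and in Dnmt1, Tet1, Tet2 and Tet3 the diamond is the lowest point.

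**Figure D3:**
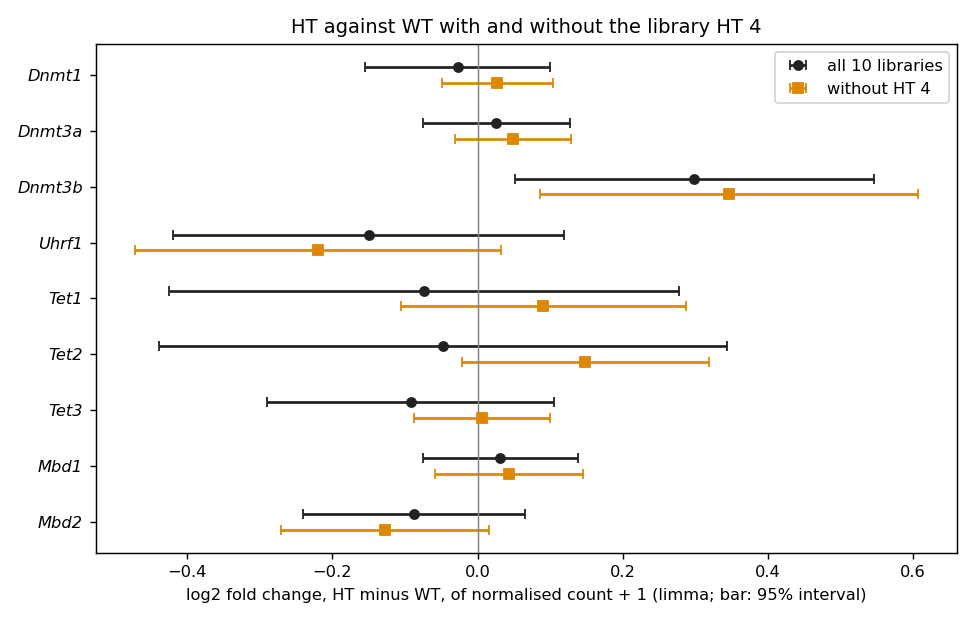
Log2 fold change of HT minus WT with its 95% interval from limma, for all 10 libraries (circles) and without HT 4 (squares). The interval of Dnmt3b lies above 0 in both fits, at 0.05 to 0.55 with all libraries, and those of the other 8 genes include 0.

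HT 4 touched the 9 genes unequally. Relative to the mean of the other 4 HT libraries it stood at 50.4% for Tet2, 56.4% for Tet1, 71.0% for Tet3, 82.8% for Dnmt1, 84.3% for Dnmt3b and 92.3% for Dnmt3a, and at 115% for Mbd2 and 126% for Uhrf1. Across the 9 genes, the log2 difference between HT 4 and the other HT libraries went with the log2 length of the longest coding transcript, from Mbd2 at 1953 bp to Tet1 at 14369 bp (Pearson's r = -0.79, rho = -0.80; a description over genes that share 1 library). When a trend on length and GC content, fitted over all genes in each library, was removed, the difference went from -0.83 to -0.24 for Tet1, from -0.49 to -0.14 for Tet3 and from -0.27 to -0.09 for Dnmt1.

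Some of the 9 genes lay away from that trend. Tet2 was still at -0.57 after its removal (-0.98 before), and before removal only 3.0% of 967 genes of like length were lower. Uhrf1 was at 0.35 both before and after, and 90.3% of 4808 genes of like length were lower. Dnmt3a, with a transcript of 9685 bp, was at -0.11 before and 0.23 after.

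**Figure D4:**
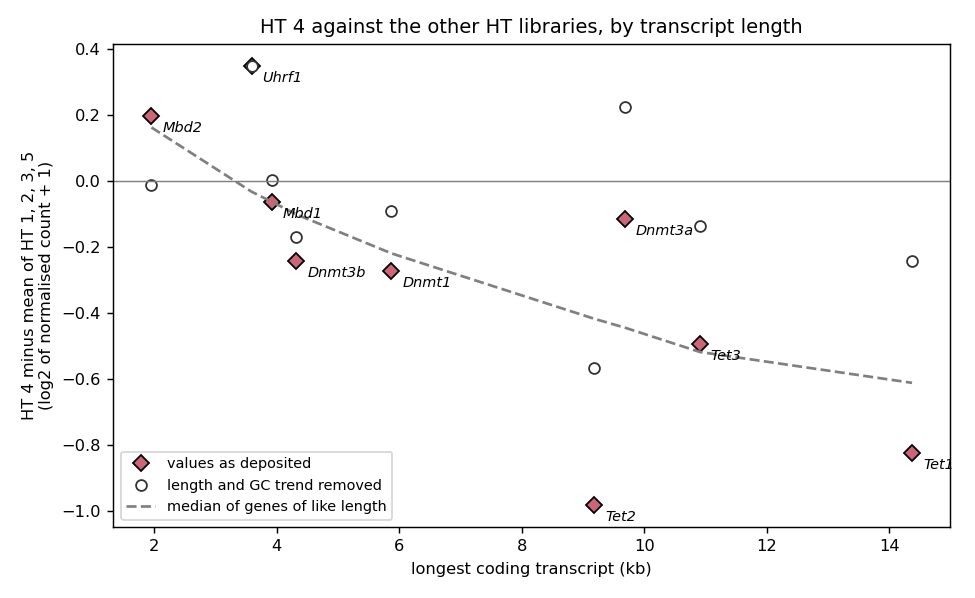
Difference between HT 4 and the mean of the other 4 HT libraries on the log2 scale, against the length of the longest coding transcript in kb, for values as deposited (diamonds) and with the length and GC trend removed (circles). The dashed line is the median of genes of like length, and Tet2 lies farthest below it, at -0.98.

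Among the 36 pairs of the 9 genes, 7 had a correlation of log2 values over the 10 libraries with an adjusted p under 0.05 (permutation test with 100000 resamples, Benjamini-Hochberg over 36 pairs). Each library's values share 1 size factor. The 6 positive pairs were those among Dnmt1, Tet1, Tet2 and Tet3, the 4 genes that were lowest in HT 4. Without HT 4, 3 pairs remained under 0.05, all of them among the 7. Transcript length also went with the deviations of other libraries (Spearman's rho 0.34 in HT 1 and -0.18 in WT 5), so leaving out HT 4 does not remove it. The part of length in these pairs was not tested.

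Tet1 and Tet3 went together with r = 0.95 (permutation p = 2e-05, adjusted p = 0.000720) and rho = 0.95 (permutation p = 0.0001, adjusted p = 0.00360), with r = 0.86 without the 2 libraries farthest from the median of Tet1. Without HT 4 they gave r = 0.85 (permutation p = 0.00285, adjusted p = 0.0342) and rho = 0.93 (permutation p = 0.000770, adjusted p = 0.0277). Dnmt1 and Tet1 gave r = 0.96 (permutation p = 0.000240, adjusted p = 0.00432) and rho = 0.89 (permutation p = 0.00116, adjusted p = 0.0209), r = 0.73 without the 2 farthest libraries, and r = 0.88 without HT 4 (permutation p = 0.00242, adjusted p = 0.0342; adjusted p of rho 0.110). Tet2 and Mbd2 went in opposite directions, with r = -0.72 (permutation p = 0.00957, adjusted p = 0.0492), rho = -0.76 (permutation p = 0.0149, adjusted p = 0.105), r = -0.84 without the 2 farthest libraries and r = -0.89 without HT 4 (permutation p = 0.00248, adjusted p = 0.0342; adjusted p of rho 0.222). Centred on the group means, these 3 pairs had r = 0.96, 0.96 and -0.85.

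Uhrf1 was the gene whose mRNA level went with that of listed proliferation genes and of listed cerebellar granule cell genes. A score was taken per library as the mean log2 deviation of the genes of a list, for 20 proliferation genes such as Mki67 and Top2a and for 6 genes of cerebellar granule cells such as Atoh1 and Zic1, a lineage whose progenitors divide in the cerebellum around this age. Uhrf1 is in neither list. These relations were not among the planned tests, and the adjustment over 18 relations does not cover the other marker lists. Its log2 value gave r = 0.91 with the proliferation score (permutation p = 0.000380, adjusted over 18 relations 0.00342; rho = 0.84, permutation p = 0.00382, adjusted 0.0344) and r = 0.92 with the granule cell score (permutation p = 0.000110, adjusted 0.00198; rho = 0.89, permutation p = 0.00116, adjusted 0.0209). Without the 2 libraries farthest from the median, r was 0.79 and 0.83. Without HT 4, r was 0.91 and 0.93 (adjusted permutation p = 0.00801 and 0.00432), and after centring on the group means 0.90 and 0.93 (adjusted permutation p = 0.00171 for both). The adjusted permutation p of rho was above 0.05 in these fits, at 0.0994 and 0.0572 without HT 4 and 0.0531 for both after centring.

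The other 8 genes had no such relation at an adjusted permutation p under 0.05 with all 10 libraries, without HT 4 or after centring. With all 10, the lowest unadjusted permutation p of r among them was 0.117, for Mbd1 with the proliferation score. With the granule cell score, rho without HT 4 ran from -0.32 for Dnmt3a to 0.62 for Tet2 (permutation p = 0.412 and 0.0864). Without the 2 libraries farthest from the median of that score, r ran from -0.61 for Mbd2 to 0.74 for Tet3. With all 10 libraries Dnmt1, which acts at the same replication forks, had r = -0.47 with the proliferation score and -0.45 with the granule cell score (permutation p = 0.168 and 0.172). Without HT 4 these were -0.10 and 0.0035 (permutation p = 0.792 and 0.993), and without the 2 farthest libraries 0.26 and 0.50. HT 5, the library with the lowest Uhrf1, also had the lowest scores, at -0.46 and -0.83, and HT 4 the highest, at 0.31 and 0.55. The summed level of the 20 proliferation genes ran from 9058 to 14712 normalised counts in HT and from 11022 to 14566 in WT, and that of the 6 granule cell genes from 6212 to 10588 in HT and from 7934 to 9712 in WT. In whole-brain RNA, fewer cells of a type and less RNA per cell cannot be told apart, and the part of cell makeup in the Uhrf1 values was not tested.

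**Figure D5:**
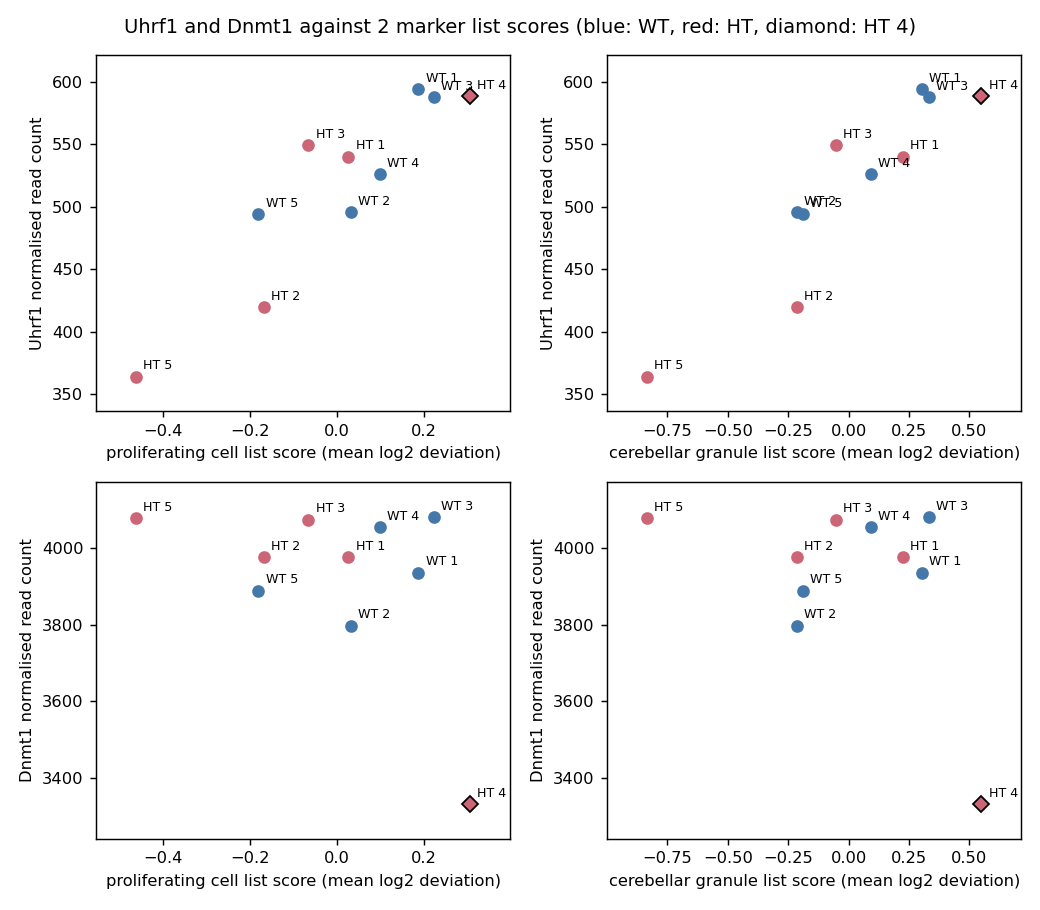
Normalised read count of Uhrf1 (top) and Dnmt1 (bottom) in each library against the score of the proliferation list (left) and of the cerebellar granule cell list (right), each the mean log2 deviation of the list's genes. The axes do not start at 0. Uhrf1 goes up with both scores (r = 0.91 and 0.92) from HT 5 to HT 4, and Dnmt1 shows no such course, with HT 4 lowest.

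The genes whose pattern was most like that of each of the 9 were ranked by r over the 10 libraries among the other genes with a mean of at least 100, which were 12826 for Dnmt3b and 12825 for each of the other 8. For Uhrf1 they were Uncx (0.98), Zic1 (0.97) and En2 (0.96), which encode homeodomain and zinc finger transcription factors, and r without HT 4 was 0.99, 0.96 and 0.98. For Dnmt3b they were Hbs1l (0.95), Sstr1 (0.93) and Adamtsl3 (0.91), with 0.95, 0.93 and 0.94 without HT 4. For Tet2 they were Pclo, Palm2 and Map3k9, all at 0.99, with 0.97 to 0.98 without HT 4. For Dnmt1 they were C530008M17Rik, Atxn2l and Crtc1 (all 0.99), with 0.92, 0.92 and 0.91 without HT 4. For Tet1 they were Plxna4, Bod1l and Rnf150 (all 0.98), with 0.95, 0.92 and 0.92 without HT 4. For Tet3 they were Hivep1 (0.99), Usp49 (0.98) and Sez6 (0.98), with 0.93, 0.88 and 0.87 without HT 4. For Dnmt3a they were Ide (0.96), Ccnyl1 (0.94) and Kcnd1 (0.92), with 0.96, 0.95 and 0.90 without HT 4. For Mbd1 they were Ngly1 (0.91), Qrich1 (0.90) and Gsap (0.88), with 0.91, 0.92 and 0.89, and for Mbd2 Pomp (0.95), Terf2 (0.95) and S100a10 (0.93), with 0.95, 0.95 and 0.94. The values are the highest of many and are given as a description.

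Around the 9 genes, 71 further genes of DNA methylation and its metabolism were listed in 6 groups, and 70 of them were tested. None had an adjusted p under 0.05 in limma. At an unadjusted p under 0.05 there were 3 of 70, where 3.41% of all genes had one. All 3 were lower in HT, as were 1.93% of all genes at that p. Without HT 4 there were 8 of 70, where 8.4% of all genes had one. Of these, 2 were higher and 6 lower, where 4.69% and 3.71% of all genes were. The log2 fold change was above 0 for 21 and below 0 for 49, and for 25 and 45 without HT 4.

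Those 3 genes were Mbd4, Cdca7 and Mthfd1. Mbd4, a glycosylase that repairs mismatches from deaminated methylcytosine, was 219 ± 34.0 in HT against 265 ± 26.5 in WT (SD, 5 libraries a group), a log2 fold change of -0.28 ± 0.12 (SE; limma, unadjusted p = 0.0352, adjusted p = 1.00), and -0.19 without HT 4 (unadjusted p = 0.0809). Cdca7, which works with the remodeller Hells in DNA methylation and is a gene of dividing cells, was 322 ± 20.5 in HT against 393 ± 46.2 in WT (SD, 5 libraries a group), with a log2 fold change of -0.28 ± 0.09 (SE; limma, unadjusted p = 0.00736, adjusted p = 1.00), and -0.29 without HT 4 (unadjusted p = 0.00753). Mthfd1, an enzyme of the folate cycle, was 846 ± 17.2 in HT against 936 ± 42.0 in WT (SD, 5 libraries a group), with a log2 fold change of -0.14 ± 0.05 (SE; limma, unadjusted p = 0.0142, adjusted p = 1.00), and -0.15 without HT 4 (unadjusted p = 0.0142). The HT libraries of Cdca7 ran from 287 to 337 and the WT libraries from 355 to 459, without overlap, and those of Mthfd1 ran from 821 to 866 and from 873 to 979, also without overlap. Those of Mbd4 overlapped. Both genes without overlap had been picked by their p. Of the 17020 genes tested, 107 (0.629%) had groups that did not overlap, 59 of them with HT lower.

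By group, the 9 methyl-CpG readers beyond Mbd1 and Mbd2 had 4 fold changes above 0 and 5 below, with a median of -0.02 (0.04 without HT 4). The 10 tested cofactors of methylation had 3 above and 7 below (median -0.05, and -0.04 without HT 4). All 11 NuRD subunits, the partners of Mbd2, were below 0, with a median of -0.04 and none at an unadjusted p under 0.05, and without HT 4 there were 8 below and 3 above. Demethylation and base excision repair genes were above 0 in 4 and below in 14 of 18 (median -0.05 with and without HT 4). Genes of the methyl donor and one-carbon cycle were above in 3 and below in 11 of 14 (median -0.09, and -0.06 without HT 4 with 4 above). At an unadjusted limma p under 0.05 there was 1 of the 14, Mthfd1, and without HT 4 there were 5, of which 4 were lower (Tyms at -0.38, Mthfd1 at -0.15 and Ahcy at -0.10 among them) and 1 was higher (Ahcyl2 at 0.10). Over all genes tested 3.41% had such a p, and 8.4% without HT 4 (4.69% higher and 3.71% lower in HT). Genes supplying or using 2-oxoglutarate, the cosubstrate of TET enzymes, were above 0 in 7 of 8 (median 0.03, and 0.02 without HT 4 with 5 above). None of these genes passed the test over all genes, and the list counts carry no test of their own.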

How the data were processed

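RNA was sequenced from 10 whole-brain libraries, 5 HT and 5 WT, grouped by their labels, with the TruSeq Stranded mRNA kit. Per the labels and the study's methods, the authors estimated abundance with Salmon 1.1.0 on GRCm38 with GC bias correction and imported it per gene with tximport. The deposited signal is a normalised read count, which the authors made by dividing by the DESeq2 1.30.1 size factor of the library. Whole reads could not be recovered from the values, so no count test was run and the read depth is unknown. Salmon splits reads between copies by estimate, and a size factor corrects no bias that depends on transcript length.

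Values were tested as log2(value + 1) with limma 3.58.1 in R 4.3.3 (trend, robust), for the 17020 genes with a mean of at least 10, as a two-sided test with p-values adjusted over all of them (Benjamini-Hochberg) and a threshold of 0.05. Fold changes are on this scale, which understates those of low genes. Single values were tested by exact permutation over 252 assignments (126 without HT 4), with 0.00794 as the smallest p. The labels do not say that replicates came from separate litters, so the p-values measure the spread between these samples. The code was tested on simulated data. Gene positions and lengths came from GENCODE M21 (GRCm38), which matched 18431 of 18444 identifiers, and promoters from RefSeq.

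The genes and lists were chosen with earlier results of these data known. All 9 genes, Arid1b, pathway and marker list genes with an unadjusted p under 0.05 where none passed the adjusted test, and the 3 genes with the highest r to each of the 9 were named. Pcna and genes named for a p without HT 4 alone were named after their values were seen. Alternatives covered the replicate block, pseudocount, filter on low values, scaling, sample weights, trend removal and leaving out each library.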

Additional observations from a re-analysis of the deposited data

Results flagged for a closer look

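In 24 groups of 5 values (the 9 genes, Arid1b and 2 list scores in HT and in WT), the gap between the lowest or highest library and its nearest neighbour was set against the range of the group. The gap passed Dixon's 95% critical value for 5 samples in 4 groups, where chance gives about 1.2, and the library was HT 4 each time. The 24 groups draw on the same 10 libraries and are not independent, so these 4 do not count as separate events. Dnmt1 in HT 4 was 3332 normalised counts, with 3975 in the nearest HT library (ratio of gap to range 0.863). Tet1 in HT 4 was 1150.0, with 1942 in the nearest (ratio 0.819). Tet3 in HT 4 was 3032, with 4119 in the nearest (ratio 0.787). Arid1b in HT 4 was 1505, with 2142 in the nearest (ratio 0.735). What sets HT 4 apart was not tested.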

How the results depend on the processing

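Over 21 alternatives the 9 genes gave 188 values, none with an adjusted p under 0.478, and 178 kept their direction. The 10 that turned came from settings that left out HT 4 or gave it less weight (array weight 0.171, against 0.858 to 1.52 in the others). With array weights the log2 fold change was 0.014 for Dnmt1, 0.035 for Tet1 and 0.090 for Tet2. Without HT 4 it was 0.027 for Dnmt1, 0.091 for Tet1, 0.15 for Tet2 and 0.0067 for Tet3. Without HT 4 and with the length and GC trend removed it was 0.011 for Dnmt1, -0.0088 for Dnmt3a and 0.081 for Tet2. In that setting Tet1 was at -0.0095, Tet3 at -0.055, Uhrf1 at -0.21 and Mbd2 at -0.10, while Dnmt3b was at 0.34 and Mbd1 at 0.041. Leaving out each library in turn, Dnmt3b ran from 0.26 to 0.35, Uhrf1 from -0.22 to -0.05, Mbd1 from 0.01 to 0.05, Mbd2 from -0.13 to -0.06, Dnmt3a from 0.0022 to 0.049, Dnmt1 from -0.046 to 0.027, Tet1 from -0.15 to 0.091, Tet2 from -0.12 to 0.15, Tet3 from -0.13 to 0.0067 and Arid1b from -0.73 to -0.57. A filter at a mean of 100 dropped Dnmt3b, whose mean was 95.8. Tet3 had an unadjusted p of 0.0440 with the trend removed from all 10 libraries. Arid1b had an adjusted p under 0.05 at -0.60 with array weights, -0.67 with the trend removed, -0.57 without HT 4 and -0.63 without HT 4 and with the trend removed. Genes with an adjusted p under 0.05 went from 0 to 2, 1, 2 and 2 in these 4 settings, and from 0 to 2 as a range over leaving out each library. Genes with an unadjusted p under 0.05 went from 580 to 1280 with array weights, 810 with the trend removed, 1429 without HT 4 and 1338 without HT 4 and with the trend removed, and from 447 to 1429 over the libraries left out. With the median coding transcript 2 of 9 genes kept their place in the order of levels. Pairs with a correlation at an adjusted p under 0.05 went from 7 to 3 without HT 4 and 11 when group-centred. Genes of the pathway and cell type lists with an unadjusted p under 0.05 went from 10 to 33 without HT 4. The adjusted exact p of the Dnmt3b share, an alternative added after seeing the data, ran from 0.0476 to 0.0952 over the libraries left out. HT and WT share replicate numbers 1 to 5, and 4 of 5 HT libraries were closest to the WT library of their own number. Same-numbered libraries deviated together only weakly (r from -0.10 to 0.09). Whether the numbers stand for pairs was not tested. The replicate block gave 558 genes at an unadjusted limma p under 0.05 and 0 at an adjusted p under 0.05. It changed no call for the 9 genes. The causes of these changes were not tested. The number of reads behind each value is unknown, so the part of counting error in the spread could not be given.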

Other observations

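Marker lists of 11 cell types were described in the same libraries, by counts and medians of the log2 fold change of HT minus WT and with no test of a list. Of 20 proliferation genes 18 were below 0, with a median of -0.16 (-0.26 without HT 4), and 3 had an unadjusted limma p under 0.05, Mki67 at -0.33, Tpx2 at -0.24 and Kif11 at -0.27, where 1.93% of all genes were lower at that p. Without HT 4 there were 5 (3.71% of all genes), as Mki67 had an unadjusted p of 0.0953 in limma while Ube2c at -0.48, Ccnb2 at -0.37 and Rrm2 at -0.20 joined Tpx2 and Kif11. Pcna, the sliding clamp that also holds Dnmt1 at the fork, was at -0.06 (limma, unadjusted p = 0.448), and at -0.13 without HT 4 (limma, unadjusted p = 0.00610, adjusted p = 0.446). Of 10 radial glia and progenitor genes 8 were below 0 (median -0.11, and -0.17 without HT 4), with Nes alone at an unadjusted p under 0.05 (-0.18; limma, unadjusted p = 0.0287) and 4 genes without HT 4, all lower. Granule cell genes of the cerebellum were below 0 in 5 of 6 (median -0.14, and -0.24 without HT 4, when Zic1 at -0.29 had an unadjusted p under 0.05).

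The 5 choroid plexus genes were all below 0, with a median of -0.46 (-0.48 without HT 4), and 3 of them had an unadjusted limma p under 0.05 (4 without HT 4). Over all genes 1.93% were lower at that p, and 3.71% without HT 4. Ttr, the thyroxine carrier made by choroid plexus epithelium, was 8118 ± 1190.3 in HT against 11181 ± 1530.2 in WT (SD, 5 libraries a group; log2 fold change -0.46, limma, unadjusted p = 0.00146, adjusted p = 1.00), and Clic6 and Folr1 were at -0.52 and -0.56 (limma, unadjusted p = 0.00429 and 0.0197). The 5 genes of meninges and fibroblasts had a median of -0.47 and the 9 microglia genes one of -0.21, all below 0 and with no unadjusted limma p under 0.05. Without HT 4 the medians were -0.58 and -0.33, again with all below 0, and Lum at -0.58, C1qa at -0.35 and Trem2 at -0.47 had an unadjusted p under 0.05. The score of the meninges and fibroblast list was highest in WT 3, at 1.16, followed by WT 2 at 0.47. The other WT libraries lay within the HT range of -0.57 to 0.21. The median of 7 endothelial and mural genes was -0.05, and -0.13 without HT 4, when 3 of them had an unadjusted p under 0.05 (1 higher and 2 lower) against 0 with all libraries. Neuron genes had a median of -0.01 over 11 genes, and 0.06 without HT 4, with 3 at an unadjusted p under 0.05, all higher. Medians of 0.06 over 6 astrocyte genes and 0.06 over 8 oligodendrocyte lineage genes fell to 0.02 each without HT 4, when 2 astrocyte genes had an unadjusted p under 0.05, 1 in each direction. The 6 tested erythroid genes had a median of 0.48, and 0.42 without HT 4, with no unadjusted limma p under 0.05 in either fit. The score of that list overlapped between the groups, from -0.47 to 0.89 in HT and from -1.24 to 0.86 in WT. Without HT 4, 8.4% of all genes tested had an unadjusted limma p under 0.05, 4.69% higher and 3.71% lower in HT. None of the marker genes had an adjusted p under 0.05, and whether the amount of choroid plexus or meninges differed between dissections was not tested.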
